A study of Mus musculus with 6 samples.

Results

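The ATP-binding cassette (ABC) transporters described here are 10 genes for drug and lipid efflux, Abcc1, Abcc3, Abcc4, Abcc5, Abcc10, Abcb1a, Abcb1b, Abcg2, Abca1 and Abcg1. They were taken by symbol from the 48587 genes of the count table. The set was chosen with measured values of METTL7A1 against mock in view, so the values of its members in that contrast are a description and carry no test. Of the 10 genes, 8 passed the abundance filter of 1 cpm in 3 or more libraries, where cpm is a count relative to the scaled total of its library, while Abca1 and Abcg1 were below it.

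4T1 is a line of mouse mammary carcinoma cells, and its total RNA was sequenced in 6 libraries to ask how METTL7A1, a putative methyltransferase, alters the transcriptome. The METTL7A1 group (3 libraries) came from cells stably transfected with the full-length Mettl7a1 cDNA in the pBICEP-CMV-2 vector, whose viral CMV promoter is active in most cell types. The mock group (3 libraries) came from cells with the empty vector, and the transfected cells were kept in medium with G418, a drug that selects for the vector. Whether either group was a pool of transfectants or grew from 1 clone is not given in the sources used here.

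Libraries held between 18386780 and 28459338 counts, and Mettl7a1 had 29 to 30 counts in mock and 6355 to 11358 in METTL7A1 libraries. The epithelial identity of the line was visible in the 6 markers Epcam, Krt8, Krt18, Cdh1, Cldn4 and Cldn7, together at 1556 to 1901 cpm in mock and 1757 to 2142 cpm in METTL7A1 libraries. Of the 6 leukocyte markers, Cd3e was at 0 in every library, Ptprc had at most 8 counts, and the sum was 0.644 to 1.26 cpm in mock and 2.60 to 2.80 cpm in METTL7A1 libraries, most of it Csf1r. The 4 fibroblast markers summed to 16.7 to 19.2 cpm in mock and 23.2 to 26.04 cpm in METTL7A1 libraries, almost entirely Pdgfra, with Lum at 0. The 4 endothelial markers stayed at or below 0.973 cpm together and the 3 adipocyte markers, with Cidec at 0, at or below 0.121 cpm. The leukocyte, fibroblast and endothelial sums were higher in METTL7A1 libraries, as were 3 of the transporters. Their part in the levels given below was not tested.

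ABC transporters move their substrates across membranes with energy from ATP, which a pair of nucleotide-binding domains bind and split. The ABCC proteins (multidrug resistance-associated proteins) export organic anions, among them drugs that the cell has joined to glutathione, glucuronate or sulfate. P-glycoprotein (ABCB1) and the breast cancer resistance protein (ABCG2) expel a broad range of hydrophobic drugs and are the classical pumps of multidrug resistance in carcinoma cells, whereas ABCA1 and ABCG1 deliver cholesterol and phospholipids to lipoproteins outside the cell.

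The 10 transcripts spanned a wide range in 4T1 cells and did not move in a common direction. Abcc3, Abcb1a and Abcc1 were higher and Abcg2, Abcc5 and Abcb1b lower in METTL7A1 libraries, and Abcc4 and Abcc10 differed little and were not called. At an adjusted p under 0.05 (edgeR quasi-likelihood test over all 13166 genes past the filter) 6 of the 8 measured members were called, against 42.1% of all tested genes. The split was 3 higher, against 21.1% of all tested genes, and 3 lower, against 21% of them. Of the 3 higher, Abcb1a passed the filter only through the METTL7A1 libraries, the group in which it was higher. With the thresholds of the study, an adjusted p under 0.01 and a log2 fold change beyond 1.5 in size, 1 member was called (Abcc3), against 2.48% of tested genes. The 3 METTL7A1 values lay wholly on one side of the 3 mock values in 7 of the 8, as they did in 51.6% of tested genes. These shares are printed for orientation only, since the members were chosen from this contrast.

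**Figure D1:**
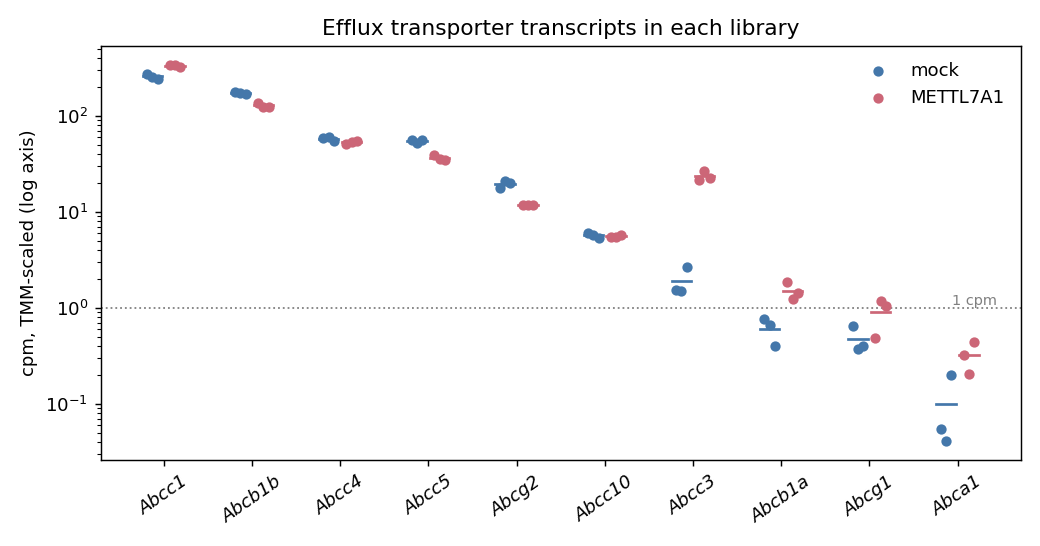
Levels of the 10 transporter transcripts in cpm on TMM-scaled library sizes (log axis), with 1 point per library, 3 mock (blue) and 3 METTL7A1 (red) libraries per gene, and a line at each group mean. Abcc3 moves from 1.89 to 23.7 cpm between the group means, while Abcc10 has means of 5.73 and 5.58 cpm and Abca1 lies below 1 cpm in all 6 libraries.

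Among the organic anion exporters, Abcc3 differed most. ABCC3 (MRP3) sits in the basolateral membrane of epithelia and exports glucuronide conjugates and bile salts. The gene (chromosome 11, 94343295 to 94392976, minus strand; all coordinates are mm10) had 1.53, 1.49 and 2.66 cpm in mock replicates 1 to 3 and 21.6, 27.1 and 22.4 cpm in METTL7A1 replicates 1 to 3. The lowest METTL7A1 library was thus far above the highest mock library, which was mock replicate 3. In counts, the mock libraries held 28, 36 and 66 reads and the METTL7A1 libraries 400, 799 and 552. The group means were 1.89 ± 0.664 and 23.7 ± 2.96 cpm (SD, n = 3 each), a difference on the log2 scale of 3.62 (SE 0.19) or 12.3-fold. Leaving out 1 library at a time gave log2 fold changes from 3.45 to 3.99, the latter without mock replicate 3. In bulk RNA such a difference cannot separate more RNA per cell from a larger share of cells that contain the transcript.

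Abcc1 was the most abundant of the 10 in cpm. ABCC1 (MRP1) exports glutathione conjugates, oxidised glutathione and the leukotriene C4. The gene (chromosome 16, 14361560 to 14475737, plus strand) had 275.9, 256.5 and 241.5 cpm in the mock and 342, 338.1 and 323 cpm in the METTL7A1 libraries. All METTL7A1 libraries were above all mock libraries, by a margin larger than the spread within each group. The means of 258 ± 17.2 and 334 ± 10.0 cpm (SD, n = 3 each) differed on the log2 scale by 0.37 (SE 0.08), a 1.30-fold difference. Genes around it were higher too: the median log2 fold change of its 40 nearest abundant neighbours on the chromosome was 0.24. With that median as an offset Abcc1 was at 0.14 and no longer called.

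Abcc5 went the other way. ABCC5 (MRP5) exports cyclic nucleotides and nucleotide analogues. Its gene lies on the same chromosome as Abcc1 (chromosome 16, 20331303 to 20426394, minus strand) and had 55.9, 52.5 and 56.2 cpm in the mock and 39.6, 35.5 and 35.1 cpm in the METTL7A1 libraries. The groups were well apart, at 54.9 ± 2.04 and 36.72 ± 2.502 cpm (SD, n = 3 each), a difference on the log2 scale of -0.58 (SE 0.07) or 1.497-fold lower. Its neighbours had a median of 0.15, so that the offset moved Abcc5 further down, to -0.73.

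Abcc4 and Abcc10 were the steady members. ABCC4 (MRP4) exports cyclic nucleotides, prostaglandins and urate, and ABCC10 (MRP7) confers resistance to taxanes. Abcc4 (chromosome 14, 118482692 to 118706219, minus strand) had 58.3, 60.3 and 54.9 cpm in the mock and 51.1, 54.0 and 54.8 cpm in the METTL7A1 libraries. The groups only just failed to touch, at mock replicate 3 and METTL7A1 replicate 3. The log2 fold change was -0.12 (SE 0.07), and it was 0.16 with the offset, as its neighbours on chromosome 14 had a median of -0.28. Abcc10 (chromosome 17, 46303221 to 46328023, minus strand) had 6.01, 5.78 and 5.39 cpm in the mock and 5.497, 5.519 and 5.72 cpm in the METTL7A1 libraries. These groups overlapped, with a log2 fold change of -0.04 (SE 0.13) that became 0.17 with the offset. Its exons overlap those of Dlk2 on the opposite strand over 270 bases. Dlk2 had up to 459 counts in a library, and the strand setting of the counting is not given in the sources used here.

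P-glycoprotein is encoded by a single gene in humans and by a tandem pair in mice, Abcb1a and Abcb1b, which stand 49610 bases apart on chromosome 5 in the same orientation. They differed in opposite directions. Abcb1b (8798186 to 8866315) was the main form in these cells, with 180, 172.1 and 171.3 cpm in the mock and 137, 124.4 and 125.5 cpm in the METTL7A1 libraries. The highest METTL7A1 library stayed well under the lowest mock library. The means of 174.5 ± 4.81 and 129 ± 6.97 cpm (SD, n = 3 each) differed on the log2 scale by -0.44 (SE 0.07), 1.35-fold lower. Abcb1a (8660077 to 8748575) was scarce, with 0.765, 0.660 and 0.403 cpm in the mock and 1.89, 1.25 and 1.42 cpm in the METTL7A1 libraries. It passed the filter only through the METTL7A1 libraries, the group in which it was higher, and was not tested when any of them was left out. The fitted log2 fold change was 1.31 (SE 0.31). The summed counts were 40 in mock and 107 in METTL7A1 libraries, a ratio per scaled library size of 2.48 with a 95% exact Poisson interval of 1.71 to 3.66 that covers counting error only.

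Since the pair are close copies, reads can be shared between them. The coding sequences of both are 3831 bases long and 87.7% identical over 3840 aligned columns (GENCODE M21 transcripts with the exon lengths of the count table). Of the stretches of 31 bases in the Abcb1a transcript 21.4% also occurred in Abcb1b, and 24.9% of those in Abcb1b occurred in Abcb1a. The longest identical stretch covers 338 bases of exons 13 and 14 of 28. Its exon 14 part is shown here because a read wholly within it cannot be assigned to either gene. Capitals mark the codons of the ABC signature motif of the first nucleotide-binding domain, which helps to bind ATP. The exon is printed 5′ to 3′ from the GENCODE M21 transcript of each gene, with mm10 positions.

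Abcb1a, chr5:8702793-8702944 (plus strand): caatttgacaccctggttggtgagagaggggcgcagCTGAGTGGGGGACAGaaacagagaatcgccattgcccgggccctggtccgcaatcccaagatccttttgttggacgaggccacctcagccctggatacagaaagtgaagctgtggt
Abcb1b, chr5:8825113-8825264 (plus strand): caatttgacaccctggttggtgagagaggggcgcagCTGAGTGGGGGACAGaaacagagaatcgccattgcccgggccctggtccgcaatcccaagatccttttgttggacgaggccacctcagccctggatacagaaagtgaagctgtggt

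The lines are identical over all 152 bases. How reads that map to several places were counted is not given in the sources used here, so the level of the scarce Abcb1a beside the abundant Abcb1b is uncertain. Abcb1a was above and Abcb1b below every mock library in each METTL7A1 library. In cpm, Abcb1b was at 235, 261 and 426 times the level of Abcb1a in the mock libraries. In the METTL7A1 libraries it was at 72.6, 99.3 and 88.4 times. This change of ratio follows from the opposite directions of the pair and is no separate result. The neighbours of the pair had median log2 fold changes of -0.06, and Abcb4, the adjoining gene for a phosphatidylcholine exporter, had at most 3 counts in any library.

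Abcg2 had the largest negative log2 fold change of the 8 measured members. ABCG2 works as a dimer, exports urate, porphyrins and many cytotoxic drugs, and marks drug-effluxing side population cells in the mammary gland. The gene (chromosome 6, 58596671 to 58695676, plus strand) had 17.8, 21.2 and 20.1 cpm in the mock and 11.80, 11.85 and 11.80 cpm in the METTL7A1 libraries. The METTL7A1 values were nearly equal and all below the lowest mock value, that of replicate 1. The means were 19.7 ± 1.75 and 11.8 ± 0.0284 cpm (SD, n = 3 each), a difference on the log2 scale of -0.74 (SE 0.10) or 1.67-fold lower. Its chromosome neighbours had a median of 0.04.

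The 3 lower members, Abcb1b, Abcg2 and Abcc5, are compared here because all 3 were lower in the same libraries. The 250 bases before a RefSeq transcription start near the deposited start were taken (GRCm38.p6, the mm10 assembly). The RefSeq table held a promoter within 100 bases of the deposited start for 6 of the 10 members. It held none within that distance for Abcc1, Abcc3, Abcb1a and Abcg1, so no higher member was searched. A set of 5 short motifs were searched on both strands: the GC box GGGCGG, the CCAAT box CCAAT, the TATA box TATAAA, the E-box CACGTG and the antioxidant response core TGACNNNGC. Matches are in capitals, and each sequence is printed 5′ to 3′ on the strand of its gene.

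Abcb1b, chr5:8797897-8798146 (plus strand): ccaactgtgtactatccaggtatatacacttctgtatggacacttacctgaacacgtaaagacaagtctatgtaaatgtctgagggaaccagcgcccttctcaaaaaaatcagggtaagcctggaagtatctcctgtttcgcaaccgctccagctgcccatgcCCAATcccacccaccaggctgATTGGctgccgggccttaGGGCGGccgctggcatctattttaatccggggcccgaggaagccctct
Abcg2, chr6:58596422-58596671 (plus strand): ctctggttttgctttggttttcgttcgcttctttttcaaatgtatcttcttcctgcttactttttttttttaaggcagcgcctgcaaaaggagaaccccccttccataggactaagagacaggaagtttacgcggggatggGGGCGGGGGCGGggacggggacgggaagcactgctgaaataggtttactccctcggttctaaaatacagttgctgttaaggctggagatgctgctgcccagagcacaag
Abcc5, chr16:20426395-20426644 (minus strand): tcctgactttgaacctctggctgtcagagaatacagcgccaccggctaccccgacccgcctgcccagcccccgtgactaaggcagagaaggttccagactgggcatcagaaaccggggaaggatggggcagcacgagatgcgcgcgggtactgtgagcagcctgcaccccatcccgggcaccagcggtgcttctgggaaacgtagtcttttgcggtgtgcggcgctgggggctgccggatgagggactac

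The Abcb1b window held 1 GC box and 2 CCAAT matches, the Abcg2 window 2 GC boxes that adjoin each other, and the Abcc5 window none of the 5 motifs. Among the 3 windows, Abcc5 had the highest GC content at 64.0%, compared with 52.8% for Abcb1b and 50% for Abcg2. The median over 32851 promoters was 52.4%. RefSeq also listed an Abcg2 start 43875 bases from the deposited start, not used here. Its window (chr6:58640296-58640545) had 67.6% GC and 4 GC boxes. The 3 lower members had no searched motif in common. Over all 6 members with a promoter, a GC box was found in 5, compared with 32.7% of all promoters, and CCAAT in 1 (33.8% of all). TATAAA was found in 1 (12.4% of all), CACGTG in 2 (6.02% of all) and TGACNNNGC in 2 (10.2% of all). The latter pair, Abcc4 and Abcc10, were not called. As no higher member was searched, the motif cannot be set against the calls. These are matches of letters and not bound sites.

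The cholesterol exporters Abca1 and Abcg1 were barely expressed. Both are textbook targets of the liver X receptors, which respond to oxysterols. Abca1 (chromosome 4, 53030787 to 53159895, minus strand) had 1, 1 and 5 counts in the mock and 6, 6 and 11 counts in the METTL7A1 libraries. Abcg1 (chromosome 17, 31057698 to 31115777, plus strand) had 12, 9 and 10 counts in the mock and 9, 35 and 26 counts in the METTL7A1 libraries. The groups did not overlap for Abca1, by a margin of 1 count, and did for Abcg1, whose METTL7A1 replicate 1 was in the range of mock. The summed counts of Abca1 were 7 and 23, a ratio per scaled library size of 3.04 with a 95% exact Poisson interval of 1.26 to 8.40. For Abcg1 they were 31 and 70, a ratio of 2.09 (1.35 to 3.30). These intervals cover counting error only and not the spread between libraries. Without an abundance filter the log2 fold changes were 1.61 (SE 0.68) for Abca1 and 1.04 (SE 0.37) for Abcg1, of which Abcg1 passed an adjusted p under 0.05.

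To compare the members with each other, cpm were divided by exon length in kilobases. On this scale the summed level of the 10 transcripts was nearly the same in both groups, at 106.4, 101.9 and 99.2 cpm per kilobase in the mock and 105.3, 102.8 and 100.1 in the METTL7A1 libraries. The make-up differed. Abcb1b held 39.6 ± 0.50% of the sum in mock and 29.1 ± 1.05% in METTL7A1 libraries (SD, n = 3 each), while Abcc1 went from 37.0 ± 1.16% to 47.9 ± 0.45%. Abcb1b was thus the leading transcript in each mock library and Abcc1 in each METTL7A1 library. The order of that pair in mock depends on the division by length, since Abcc1 led in cpm.

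**Figure D2:**
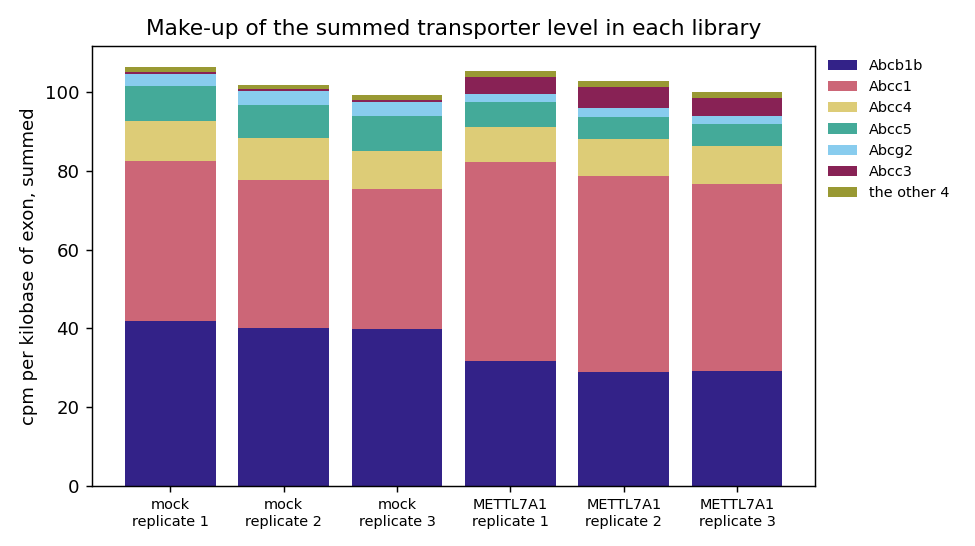
Summed level of the 10 transporter transcripts in each of the 6 libraries, in cpm per kilobase of exon, stacked by gene. The bars end between 99.2 and 106.4 in all libraries, while the Abcb1b segment is smaller and the Abcc1 and Abcc3 segments are larger in the METTL7A1 libraries.

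Behind that pair came Abcc4, with 9.85% of the summed level per kilobase in mock and 9.07% in METTL7A1 libraries, and Abcc5, with 8.65% and 5.77%. Abcc3 moved from place 7 to place 5, from 0.371 ± 0.142% to 4.61 ± 0.60% of the sum, and passed Abcg2, which held 3.33% in mock and 1.99% in METTL7A1 libraries. In the METTL7A1 libraries the share of Abcc3 (4.09 to 5.26%) approached but did not reach that of Abcc5 (5.56 to 6.07%). Abcc10 remained close to 0.964% in mock and 0.938% in METTL7A1 libraries. Abcg1 and Abcb1a lay at the bottom with Abca1. Their shares overlapped between libraries in both groups, so the order of Abcg1 and Abcb1a is not resolved. Within the ABCC exporters, Abcc1 in cpm, without division by length, was 180, 173 and 90.9 times Abcc3 in the mock libraries. In the METTL7A1 libraries it was 15.9, 12.5 and 14.4 times Abcc3 on that scale.

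**Figure D3:**
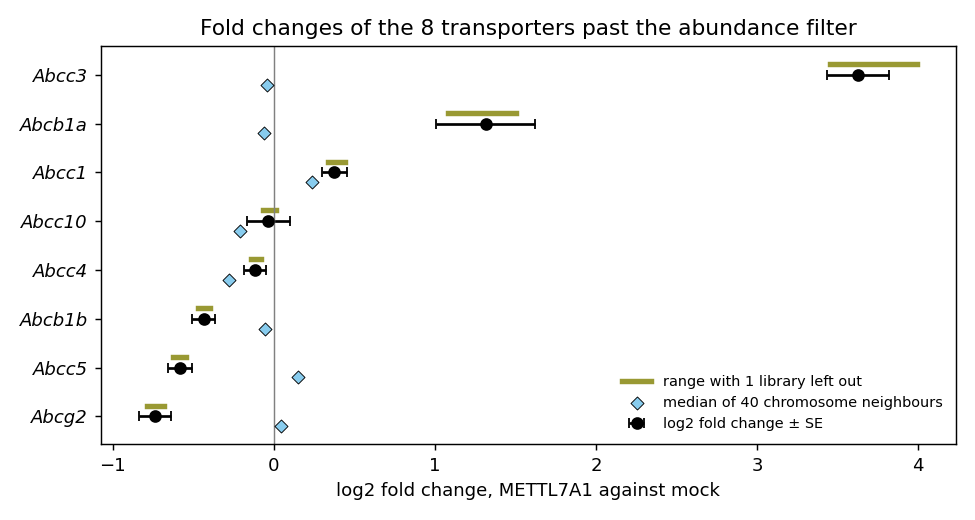
Log2 fold change of METTL7A1 against mock for the 8 transporters past the abundance filter (black points, bars of 1 SE), with the range over fits that each left out 1 library (olive) and the median of the 40 nearest chromosome neighbours (blue diamonds). The neighbour median is close to the fold change only for Abcc1, Abcc4 and Abcc10, and Abcc3 lies beyond 3 in every fit.

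The pattern of Abcc3 over the 6 libraries was most like those of Il18rap, a subunit of the interleukin-18 receptor, Zbtb10, a zinc finger protein, and Tmie, a protein of the inner ear transduction channel. Their Pearson correlations with Abcc3 in log2 cpm were 0.999, 0.999 and 0.998 over 6 libraries. The 6 points form 2 separate groups, so any gene that separates the groups with little spread correlates highly, and 945 of 11660 genes exceeded 0.95.

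The other ABC genes served as a frame for the 10. Of 43 such genes in the table, 16 passed the filter, 10 had 0 counts in every library and the remaining 17 had at most 43 counts. A gene with 0 counts may still reach 0.102 to 0.164 cpm depending on the library, the value of 3 counts. At an adjusted p under 0.05, 10 of the 16 (62.5%) were called, against 42.1% of all tested genes. The split was 6 higher and 4 lower, against 21.1% higher and 21% lower over all tested genes. The median on the log2 scale was 0.11 compared with -0.03 over all tested genes.

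The largest rises were those of Tap1 and Tap2, which form the peptide transporter that feeds major histocompatibility complex class I molecules in the endoplasmic reticulum. Tap1 rose from a mean of 4.25 ± 0.687 to one of 12.4 ± 0.78 cpm (SD, n = 3 each), a difference on the log2 scale of 1.55 (SE 0.14, adjusted p = 1.27e-05 in edgeR), and was the only one of the 16 past the thresholds of the study. Tap2 rose from 20.8 ± 1.92 to 48.2 ± 1.83 cpm (1.21 on the log2 scale, SE 0.09, adjusted p = 1.75e-06 in edgeR). Both calls held under all 15 alternative settings. Tap1 overlaps Psmb9 on the opposite strand over 212 exon bases, and Psmb9 had at most 68 counts in a library. Abca7, a phospholipid transporter, rose by 0.69 on the log2 scale (SE 0.11, adjusted p = 0.000568 in edgeR), and by 0.38 with the neighbour offset.

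Smaller rises were found for Abcd3, a peroxisomal fatty acid transporter (0.24, SE 0.07), and Abca3, which loads surfactant lipids into lamellar bodies (0.21, SE 0.07). Abca3 shares 5691 exon bases with D330041H03Rik on the opposite strand, which had at most 245 counts. Of the 4 tested genes of the soluble ABCE and ABCF groups, which lack membrane domains, 2 were called lower (Abcf2 and Abce1) and 2 were not called. Over all tested genes, 42.1% were called and 21% were called lower. Abcf2 fell from 167.6 ± 16.3 to 120.2 ± 2.13 cpm (-0.48 on the log2 scale, SE 0.08, adjusted p = 0.00073 in edgeR), and Abce1 had -0.27 (SE 0.08, adjusted p = 0.024 in edgeR). Abcd4, of lysosomal cobalamin export, had -0.27 (SE 0.09). Without METTL7A1 replicate 2 the number of called genes among the 16 was 5, and Abcd3, Abca3, Abce1 and Abcd4 lost their call. With the neighbour offset Abcd4 turned to 0.21, Abce1 was at -0.08 and Abca3 at 0.08, none of them called. Over the 15 alternative settings the call of Abca3 was lost in 6, that of Abce1 in 5 and that of Abcd4 in 8.

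**Figure D4:**
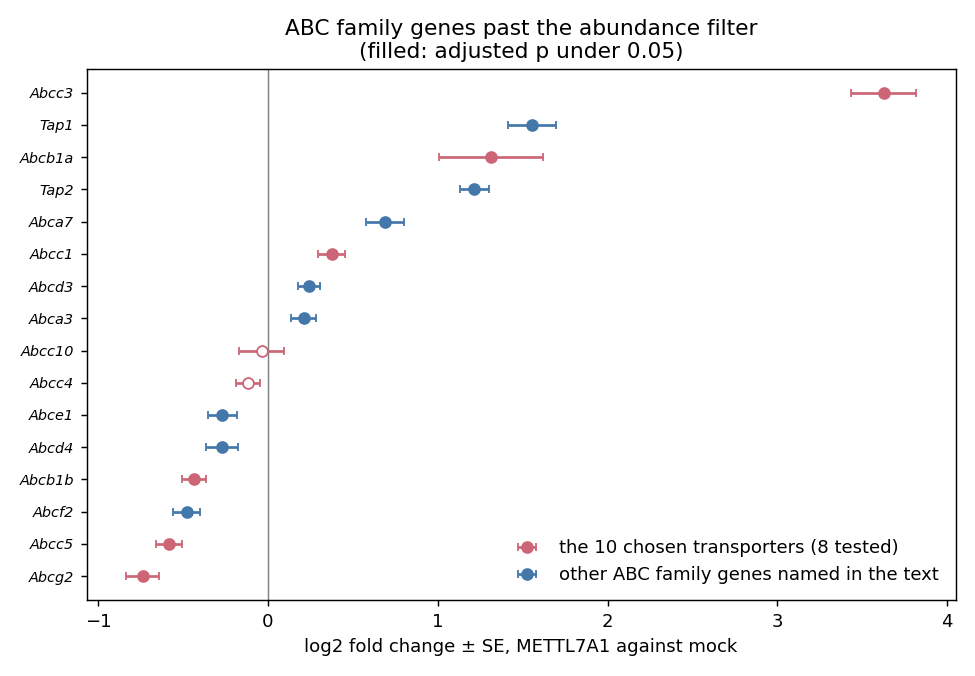
Log2 fold changes with SE of ABC genes past the abundance filter, 8 of the 10 chosen transporters (red) and the other family genes named in the text (blue), with filled points for an adjusted p under 0.05. Abcc3 stands apart at the top, Tap1, Abcb1a and Tap2 follow, and Abcg2 is lowest.

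Genes that supply, sense or anchor the transporters were taken as 5 lists of 67 genes in all. Of these, 51 were tested and 20 (39.2%) called, against 42.1% of all tested genes. The split was 16 higher and 4 lower, against 21.1% higher and 21% lower over all tested genes, and the median on the log2 scale was 0.03. The regulation of sterol efflux was represented by 15 genes. Of the 14 tested, 5 (35.7%) were called, against 42.1% of all tested genes, with a median of 0.03. Srebf2, the master regulator of sterol synthesis, rose by 0.51 on the log2 scale (SE 0.07, adjusted p = 0.000232 in edgeR), and Rxrb, a partner of the liver X receptors, by 0.60 (SE 0.09, adjusted p = 0.000239 in edgeR). Npc1, which moves cholesterol out of lysosomes, rose by 0.38 (SE 0.09) and Pltp, the phospholipid transfer protein, by 0.66 (SE 0.16). With the neighbour offset Npc1 and Pltp lost their call, while Srebf2 and Rxrb were at 0.25 and 0.37 and still called. The 1 lower gene was Nr1h3, the liver X receptor alpha, which fell from 2.17 ± 0.19 to 1.21 ± 0.31 cpm (-0.85 on the log2 scale, SE 0.24, adjusted p = 0.0161 in edgeR). It was named after its values were seen, and its call was lost without mock replicate 2 or METTL7A1 replicate 3.

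Sensors of drugs and oxidants, which control many efflux genes, comprised 10 genes. Of the 7 tested, 4 (57.1%) were called, against 42.1% of all tested genes, and the median was -0.03 on the log2 scale. Ahr, the aryl hydrocarbon receptor, which activates genes of drug metabolism, fell from a mean of 28.7 ± 1.16 to one of 14.5 ± 1.57 cpm (SD, n = 3 each), a difference on the log2 scale of -0.98 (SE 0.10, adjusted p = 1.94e-05 in edgeR). Its neighbours on chromosome 12 had a median of -0.51, and with the offset Ahr was at -0.48 and still called. Hif1a, a transcription factor of the hypoxia response, fell by 0.61 on the log2 scale (SE 0.08, adjusted p = 0.000113 in edgeR). The offset reduced this to -0.14, not called. Nfe2l2 (NRF2), the activator at antioxidant response elements, rose by 0.39 (SE 0.08, adjusted p = 0.00174 in edgeR), and Bach1, a repressor at the same elements, by 0.44 (SE 0.07, adjusted p = 0.000857 in edgeR). With the offset Bach1 remained called at 0.29 and Nfe2l2 did not, at 0.16. The drug sensors Nr1i2 (PXR), Nr1i3 (CAR) and Ppara had too few counts to be tested.

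The glutathione list held 17 genes that make glutathione or join it or glucuronate to drugs, the substrates of the ABCC pumps. Of 11 tested, 6 (54.5%) were called, against 42.1% of all tested genes. The split was 5 higher and 1 lower, against 21.1% higher and 21% lower over all tested genes, and the median on the log2 scale was 0.27. Gss, glutathione synthetase, rose by 0.41 (SE 0.10), and the transferases Gstt3, Mgst1 and Gstp1 by 0.58 (SE 0.17), 0.74 (SE 0.21) and 0.32 (SE 0.10). Gstp1 has close paralogues, so its level is uncertain. Gsr, glutathione reductase, rose by 0.27 (SE 0.09) and Gsta4, a transferase for lipid aldehydes, fell by 0.60 (SE 0.22) on the log2 scale, both named after their values were seen. All 6 calls were lost in at least 1 of the 15 alternative settings. Ugt1a6a was at 0 counts in every library.

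Drug uptake and other transport was represented by 15 genes, of which 10 were tested and 1 was called, against 42.1% of all tested genes. This was Slco4a1, an organic anion importer, which rose by 0.48 on the log2 scale (SE 0.09, adjusted p = 0.00106 in edgeR). Slc28a2, Slco2b1 and Slco3a1 were at 0 counts in every library. The list of proteins that anchor, traffic or phosphorylate the pumps held 10 genes. Of the 9 tested, 4 (44.4%) were called, all higher, against 42.1% of all tested genes called and 21.1% called higher, and the median on the log2 scale was 0.18. Pim1, a kinase known to phosphorylate ABCG2 and P-glycoprotein, rose from a mean of 11.6 ± 0.73 to one of 39.8 ± 2.43 cpm (SD, n = 3 each), a difference on the log2 scale of 1.78 (SE 0.09, adjusted p = 1.56e-07 in edgeR), and was past the thresholds of the study. The membrane-actin linkers Msn and Ezr rose by 0.54 (SE 0.11) and 0.38 (SE 0.10), and the scaffold Slc9a3r2 by 0.72 (SE 0.12). The call of Ezr was lost without METTL7A1 replicate 2 and with the neighbour offset, while those of Pim1, Msn and Slc9a3r2 held under all 15 settings.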

How the data were processed

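Stranded total RNA libraries of 4T1 cells, depleted of ribosomal RNA, were read in pairs. The authors trimmed reads with BBDuk, aligned them to mm10 with STAR 2.5.3a and assigned them to genes with featureCounts in R 3.5.1, after base calling with bcl2fastq 2.20.0.422. They deposited raw counts per gene, without normalization, for 48587 genes. Per the file headers the table also holds the exon length of each gene in bases, a value of the annotation that served here to scale levels. How strand and reads mapping to several places were treated is not given in the sources used here, so counts of close copies and of overlapping genes can be shifted. Groups and replicate numbers came from the sample titles. The labels call the replicates biological triplicates, and p values measure the spread between these libraries.

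The analysis used edgeR 4.0.16 in R 4.3.3. The abundance filter of 1 cpm in 3 or more libraries left 13166 genes, TMM factors scaled the libraries, and the quasi-likelihood test without covariates compared METTL7A1 with mock. The Benjamini-Hochberg adjustment covered these 13166 genes, and called means an adjusted p under 0.05. The thresholds of the study were an adjusted p under 0.01 and a log2 fold change beyond 1.5, its base taken as 2. Each log2 fold change over the root of its F statistic gave the SE. Values are cpm on scaled library sizes, as mean ± SD. The fits were tested on simulated counts first.

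The members and all gene lists were chosen with earlier results of these data known. Beside the members and Mettl7a1, the text names at most 8 higher and 8 lower called genes of the remaining ABC family, at most 4 called genes of each list with the smallest p, list genes with 0 counts in every library, and the 3 genes most correlated with the member of largest change over genes that averaged 50 counts or more. Nr1h3, Gsr, Gsta4 and the marker genes Csf1r and Pdgfra were named after their values were seen, and genes too low to test were named to account for them. The 15 alternatives were scaling by RLE or by the upper quartile, testing without an abundance filter, a minimum of 10 counts per library, exclusion of the top 20 genes by abundance, DESeq2 1.42.0, voom of limma 3.58.1, replicate number as a block, 1 library left out at a time, and an offset for chromosome position, the median of the 40 closest neighbours with an average log2 cpm over 2. Some genes of the ABC family and of the marker lists are counted but not reported by name here. Levels were also ranked without division by length. Sequences came from RefSeq and GENCODE M21 of the same build.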

Additional observations from a re-analysis of the deposited data

How the results depend on the processing

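Of the 10 transporters, 6 were called in most settings, 7 without an abundance filter (Abcg1 added) and 5 with the neighbour offset (Abcc1 lost). Over all genes, 5988 of 28601 were called without the filter and 4147 of 13166 with the offset. Leaving out 1 library gave 5 to 6 members, with Abcb1a under the filter whenever a METTL7A1 library was missing. Abcc3 was the 1 member past the thresholds of the study in all 15 settings. Of the other ABC genes, 5 to 10 were called when a library was left out, with 5 without METTL7A1 replicate 2, where calls over all genes also fell, from 5537 of 13166 to 3761 of 12927, and the cause was not tested. For the support lists this range was 14 to 22. Over all genes, calls with a library left out ran up to 5753 of 12930, without mock replicate 3. Abcd4 reversed to 0.207 with the neighbour offset, by construction of the offset, since its neighbours had a median of -0.48. The share of Abcb1b in the summed mock level was 39.6% per kilobase and 30.4% in cpm, which weigh longer transcripts more. The deviations of same-numbered libraries from their group means correlated at -0.159, 0.23 and -0.391, of mixed sign. Differently numbered libraries were not compared, so these values do not settle whether replicate numbers pair the libraries. With replicate number as a block, 6 members, 8 other ABC genes and 18 support list genes were called and 1 member was past the thresholds of the study. Over all genes, 4810 of 13166 were called in that fit. Counting error was widest for Abca1, Abcg1 and Abcb1a, which held at most 11, 35 and 37 counts in a library.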
